A study of Mus musculus with 6 samples.

Results

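The genes described here make, sense, export and store cholesterol. They were the 32 rows of the count table whose mouse gene symbol was on a list of cholesterol genes, of 46603 genes in all. They fell into 18 genes of synthesis, 5 of sterol sensing, 5 of the LXR and efflux arm, and 4 of lysosomal release and esterification. All 32 were among the 15440 genes that passed the filter on low counts. The RNA came from CD11B+ cells, a mixture of monocytes, macrophages and other leukocytes that carry the integrin CD11B, taken on magnetic beads from whole kidneys of 6 male mice aged 10–12 weeks. In every mouse both renal pedicles had been clamped for 28 minutes, and the kidneys were collected 3 days after this ischemia-reperfusion injury (IRI-AKI), so there were no uninjured samples. The 3 PTEC DN RAR mice carried PEPCK CRE and Rosa26-LSL-RARaT403X, a truncated RARα that blocks signaling by retinoic acid receptors once Cre has removed a stop cassette. The 3 Cre– controls carried the same Rosa26-LSL-RARaT403X allele without PEPCK CRE. PEPCK-Cre recombines in proximal tubular epithelial cells (PTECs), so recombination was directed to PTECs and not to the CD11B+ cells that were sequenced. The comparison therefore asks how cholesterol genes in kidney CD11B+ cells differed after IRI-AKI when retinoic acid signaling was blocked in the neighboring PTECs.

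Cells obtain cholesterol by making it from acetyl-CoA or by taking up lipoproteins and freeing their cholesterol in the lysosome. When membranes run low in sterol, SCAP escorts SREBP2 to the Golgi, where SREBP2 is cut and released to the nucleus to switch on nearly all genes of synthesis, and INSIG proteins hold SCAP back when sterol is plentiful. When sterol is in excess, oxysterols activate the LXRs, which switch on the exporters ABCA1 and ABCG1. Macrophages that digest dead cells receive large amounts of cholesterol in this way, and they export it or store it as esters.

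Gene counts summed to between 29318041 and 46517005 per library, and 3 reads corresponded to between 0.0645 and 0.1023 CPM, the count of a gene per 1000000 counted reads. Itgam, the gene of CD11B, had 1737, 1959 and 1995 CPM in controls 1, 2 and 3 and 1366, 1303 and 980 CPM in PTEC DN RAR libraries 1, 2 and 3, the order kept for all values below. Rara had 45.4, 35.3 and 45.1 CPM in controls and 30.7, 31.5 and 37.6 CPM in PTEC DN RAR libraries, but the table has no entry for the transgene, so these counts do not check the genotype. Markers of cells without CD11B were detected in all 6 libraries and were higher in PTEC DN RAR: 16 of 16 proximal tubule markers passed the test upward, with a summed level of 743 to 983 CPM in controls and 2434 to 3715 CPM in PTEC DN RAR, as did 6 of 6 markers of the thick ascending limb and 10 of 10 of endothelium. Of 9 resident macrophage markers, 1 was higher and 1 was lower, while 7 of 8 infiltrating monocyte markers were lower, with a summed level of 3234 to 3722 CPM in controls and 1542 to 1609 CPM in PTEC DN RAR. Of further lists, 6 of 10 neutrophil markers, 7 of 8 of cycling cells and 2 of 3 tested of platelets were lower, 1 of 4 tested B cell markers was higher, and of 7 dendritic cell markers 2 were higher and 1 lower. Fewer cells of a type and less RNA per cell cannot be told apart in such bulk libraries. Mitochondrial genes took 5.03% to 8.77% of gene counts in controls and 10.38% to 12.08% in PTEC DN RAR.

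Of the 18 cholesterol synthesis genes, 9 were called higher and 0 lower in PTEC DN RAR than in Cre– controls. Among those called higher, Acat2, Hmgcs1, Sqle, Lss and Hsd17b7 were 1.67-, 1.62-, 1.71-, 1.56- and 1.89-fold higher. The other genes called, Fdft1, Nsdhl, Cyp51 and Tm7sf2, were 1.39-, 1.33-, 1.35- and 1.35-fold higher. The consecutive enzymes from Mvk to Fdps and the late enzymes Msmo1, Ebp, Sc5d and Dhcr7 were not called. The test was the quasi-likelihood test of edgeR with Benjamini-Hochberg adjustment over 15440 genes at an adjusted p of 0.05, and log2 fold changes are PTEC DN RAR over control with the standard error. Across all genes tested, 23.6% were called higher and 17.1% lower. The count of synthesis genes higher fell to 5 without control 2, where 17.8% of all genes were called higher, and was 6 to 8 without any other single library. At an unadjusted p of 0.05 the count of synthesis genes lower was also 0, and DESeq2 and limma-voom each called 0 lower. The median log2 fold change of the 18 genes was 0.42, against 0.04 over all genes tested, and the log2 fold change was above 0 for 17 of the 18. In 10 of the 18, every PTEC DN RAR library was above every control library, as in 29.2% of all genes tested. Summed over the 18 genes, the level was 336, 340 and 347 CPM in controls and 441, 454 and 407 CPM in PTEC DN RAR libraries. Every PTEC DN RAR sum was thus above every control sum, with library 3 the lowest of the PTEC DN RAR libraries. When libraries were scaled on a list of 25 leukocyte genes in place of all genes, the median over all genes tested moved from 0.04 to 0.25. That of the synthesis genes moved to 0.63, and 14 of them were called higher and 0 lower, against 31.4% and 4.31% of all genes. The 25 leukocyte genes were not steady themselves: in the scaling on all genes, all 25 had log2 fold changes below 0. Of them 7 were called lower and 0 higher, against 17.1% and 23.6% of all genes.

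**Figure D1:**
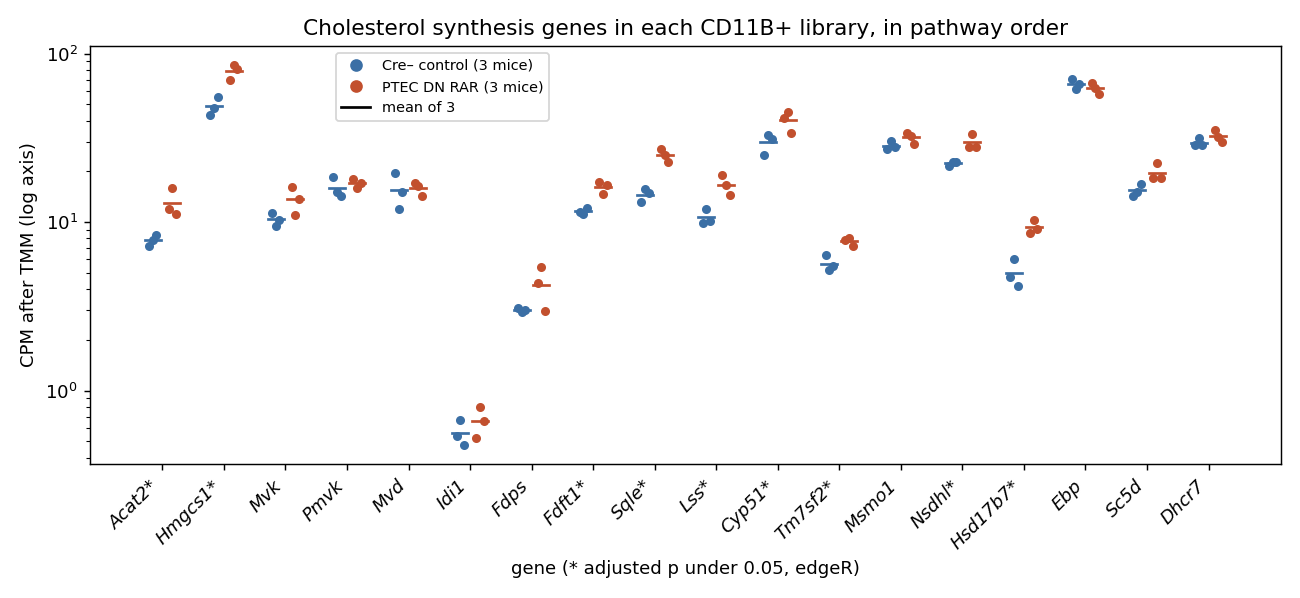
Level of the 18 cholesterol synthesis genes in each library in CPM after TMM scaling (log axis), in the order of the pathway, with 1 point per mouse (3 Cre– controls, 3 PTEC DN RAR) and a line at the mean, an asterisk marking an adjusted p under 0.05. The points of the groups do not overlap for 10 genes, with the PTEC DN RAR points above, and Ebp is the gene whose PTEC DN RAR mean is below the control mean.

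The start of 3 synthesis genes is shown with the motifs through which SREBP2 and its partner NF-Y are known to act, all 3 called higher: Hmgcs1, in which a full sterol regulatory element was found, Hsd17b7, the member with the largest upward log2 fold change, and Lss, with a single CCAAT box. The windows run 5′ to 3′ on the gene's own strand from 250 bases before to 50 bases after the start of a RefSeq transcript, on build GRCm38.p6. Hmgcs1 is chr13:119690101-119690400 on the plus strand, Hsd17b7 is chr1:169969156-169969455 on the minus strand, and Lss is chr10:76531355-76531654 on the plus strand. Capitals mark the sterol regulatory element TCACNCCAC, the CCAAT box, read here as ATTGG on the other strand, and the E-box CACGTG.
Hmgcs1: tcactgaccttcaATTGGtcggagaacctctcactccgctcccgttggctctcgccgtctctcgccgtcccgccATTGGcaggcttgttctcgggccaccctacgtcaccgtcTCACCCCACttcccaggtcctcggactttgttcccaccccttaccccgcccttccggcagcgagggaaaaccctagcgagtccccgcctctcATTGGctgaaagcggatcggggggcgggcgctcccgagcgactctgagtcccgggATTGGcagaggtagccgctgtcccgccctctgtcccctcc
Hsd17b7: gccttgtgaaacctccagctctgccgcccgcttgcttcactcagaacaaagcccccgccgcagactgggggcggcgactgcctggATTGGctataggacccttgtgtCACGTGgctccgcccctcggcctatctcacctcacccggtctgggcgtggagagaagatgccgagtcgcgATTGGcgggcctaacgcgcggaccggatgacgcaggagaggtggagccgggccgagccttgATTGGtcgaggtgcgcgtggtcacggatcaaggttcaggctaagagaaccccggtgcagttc
Lss: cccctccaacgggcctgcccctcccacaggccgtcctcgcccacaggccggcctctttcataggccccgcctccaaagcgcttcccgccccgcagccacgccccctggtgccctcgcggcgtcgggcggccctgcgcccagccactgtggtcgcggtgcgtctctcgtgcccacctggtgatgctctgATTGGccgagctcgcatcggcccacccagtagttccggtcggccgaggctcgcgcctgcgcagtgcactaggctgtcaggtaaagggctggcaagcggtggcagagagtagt

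In Hmgcs1 the letters TCACCCCAC began 137 bases before the start, with CCAAT boxes 237, 176 and 45 bases before it and another after it. Windows were found for 27 of the 32 members, which leaves Fdps, Fdft1, Sqle, Abcg1 and Npc1 without. CCAAT, searched on both strands, was in 22 of the 27 members and in 14 of 15 synthesis genes, and in 41.1% of all 27025 genes with a window. Members and all genes were counted alike, a gene holding a motif where any of its windows did. Among synthesis genes called higher, 6 of 7 with a window held it. TCACNCCAC or its complement GTGGNGTGA was in 1 member, Hmgcs1, and in 1.44% of genes, and the looser TCACNCNAC, which includes the former, was in Hmgcs1 and Nsdhl and in 3.15% of genes. The GC box GGGCGG, not put in capitals, was in 24 of 27 members and 38.2% of genes, and CACGTG was in 6 members and 8.09% of genes. The motifs were chosen after the windows had been seen, and a match is a run of letters, not a measured binding site.

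The first steps join acetyl-CoA units into HMG-CoA and then mevalonate. Acat2, the cytosolic thiolase of the first step, had 7.17, 7.85 and 8.39 CPM in controls and 12.0, 15.9 and 11.2 CPM in PTEC DN RAR libraries. It rose by 0.74 ± 0.16 on the log2 scale (adjusted p = 0.00758, edgeR), and the groups did not overlap. Of its longest transcript, 65.6% is at least 95% identical to other genes, Acat3 and Tcp1, so its reads are uncertain. Hmgcs1 (ENSMUSG00000093930, chr13:119690379-119708260, plus strand), which makes HMG-CoA, had 43.0, 47.6 and 55.5 CPM in controls and 70.0, 85.6 and 80.8 CPM in PTEC DN RAR libraries. All 3 PTEC DN RAR values lay above the highest control, a rise of 0.69 ± 0.12 on the log2 scale (adjusted p = 0.00263, edgeR), or 1.62-fold. Both genes were called in each of the 6 fits that left out 1 library. An antisense gene, Gm48342, overlaps 557 of the exon bases of Hmgcs1.

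The 5 enzymes that follow, which turn mevalonate into farnesyl pyrophosphate, did not pass the test with TMM scaling. With leukocyte scaling, Mvk and Fdps were called higher (adjusted p of 0.0242 and 0.038, edgeR). Mvk, the kinase that acts on mevalonate, had 11.3, 9.53 and 10.3 CPM in controls and 16.2, 11 and 13.7 CPM in PTEC DN RAR libraries (log2 fold change 0.39 ± 0.16, adjusted p = 0.0833, edgeR). Its lowest PTEC DN RAR value, in library 2, lay below control 1, and without PTEC DN RAR library 2 its adjusted p was 0.0313. Pmvk, the second kinase, and Mvd, the decarboxylase after it, had log2 fold changes of 0.09 and 0.03 with overlapping groups, and Mvd ranged from 12.0 to 19.6 CPM among controls alone. Idi1, which converts the isoprene unit between its 2 forms, had 0.475 to 0.801 CPM over the 6 libraries and down to 15 reads, the lowest count of any member. Fdps, which builds farnesyl pyrophosphate, had 3.10, 2.92 and 3.01 CPM in controls and 4.35, 5.44 and 2.97 CPM in PTEC DN RAR libraries (log2 fold change 0.50 ± 0.24, adjusted p = 0.126, edgeR). Libraries 1 and 2 lay above the controls and library 3 at their level, and without PTEC DN RAR library 3 the adjusted p was 0.0371. Nearly the whole Fdps transcript, 91.4%, is shared with 6 other genes, 5 of them processed pseudogenes, and 33.3% of that of Idi1 is shared with 3 others. Reads that align to more than 1 place are not in these counts.

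The 3 enzymes that commit the pathway to sterols were all called higher. Fdft1, squalene synthase, had 11.5, 11.2 and 12.1 CPM in controls and 17.2, 14.6 and 16.5 CPM in PTEC DN RAR libraries, and it rose by 0.47 ± 0.12 on the log2 scale (adjusted p = 0.0123, edgeR). The groups did not overlap, but the call was narrow: the adjusted p was 0.0517 without control 2, 0.0514 without PTEC DN RAR library 1 and 0.0508 without PTEC DN RAR library 3. Of its longest transcript, 54.7% is shared with the processed pseudogene Gm6781 and the cathepsin gene Ctsb, which overlaps 774 of its exon bases on the opposite strand, so its reads are uncertain, and whether counting used strand is not given in the sources used here. Sqle (ENSMUSG00000022351, chr15:59315077-59331192, plus strand), squalene epoxidase, a rate-limiting step of the sterol branch, had 13.1, 15.8 and 14.8 CPM in controls and 27.0, 25.1 and 22.7 CPM in PTEC DN RAR libraries. Even the lowest PTEC DN RAR library was well above the highest control. Sqle rose by 0.77 ± 0.12 on the log2 scale, or 1.71-fold (adjusted p = 0.00166, edgeR), the smallest adjusted p of the 32 members, and no other gene shares 100 bases of it at 95% identity. Lss, which closes squalene epoxide into lanosterol, had 9.86, 12.0 and 10.1 CPM in controls and 19.1, 16.6 and 14.4 CPM in PTEC DN RAR libraries. It rose by 0.65 ± 0.15 (adjusted p = 0.00882, edgeR) with no overlap. Sqle and Lss kept their calls in all 6 fits that left out 1 library. For Lss, 3.5% of exon bases overlap an antisense gene.

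Among the enzymes that trim lanosterol to cholesterol, Hsd17b7 (ENSMUSG00000026675, chr1:169949535-169969241, minus strand), the 3-keto reductase, stood out. Hsd17b7 had 4.69, 6.01 and 4.18 CPM in controls and 8.65, 10.3 and 9.09 CPM in PTEC DN RAR libraries. The groups were well apart, and it rose by 0.91 ± 0.17 on the log2 scale, or 1.89-fold (adjusted p = 0.0040, edgeR), the largest rise of the 32. Nsdhl, the sterol dehydrogenase that works with it, had 21.6, 22.6 and 22.8 CPM in controls and 27.8, 33.3 and 28.0 CPM in PTEC DN RAR libraries. It rose by 0.41 ± 0.10 (adjusted p = 0.0146, edgeR) without overlap, with adjusted p of 0.0529 without control 2, 0.0669 without control 3 and 0.0536 without PTEC DN RAR library 2. Cyp51, the lanosterol 14-demethylase, had 25.1, 33.0 and 31.0 CPM in controls and 41.5, 45.2 and 33.7 CPM in PTEC DN RAR libraries. Library 3 was just above the highest control, and the rise of 0.43 ± 0.14 (adjusted p = 0.0367, edgeR) was lost in 5 of the 6 fits that left out 1 library, all but the fit without PTEC DN RAR library 3, with adjusted p of 0.0507 to 0.122. Tm7sf2, a sterol 14-reductase, had 6.35, 5.17 and 5.48 CPM in controls and 7.86, 7.99 and 7.18 CPM in PTEC DN RAR libraries. Its rise of 0.44 ± 0.15 (adjusted p = 0.0415, edgeR), again without overlap, was likewise lost in 5 of those fits, all but the fit without control 1, with adjusted p of 0.0749 to 0.166, and 12.1% of its exon bases overlap Vps51 on the same strand.

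The remaining late enzymes did not pass with TMM scaling. With leukocyte scaling, Sc5d, Msmo1 and Dhcr7 were called higher (adjusted p of 0.0177, 0.0337 and 0.0498, edgeR). Sc5d, the sterol desaturase, had 14.3, 15.1 and 16.9 CPM in controls and 18.3, 22.5 and 18.2 CPM in PTEC DN RAR libraries, with a log2 fold change of 0.35 ± 0.13 (adjusted p = 0.0585, edgeR). Among the 18, it was the gene with non-overlapping groups and no call. Msmo1, the C4 methyl oxidase, had 27.1, 30.2 and 28.0 CPM in controls and 34.0, 32.5 and 29 CPM in PTEC DN RAR libraries, for a log2 fold change of 0.16 ± 0.10. Dhcr7, the final reductase of this route, had 28.5, 31.6 and 28.7 CPM in controls and 35.1, 32.1 and 29.9 CPM in PTEC DN RAR libraries, for a log2 fold change of 0.13 ± 0.10. For both, the PTEC DN RAR values ran from within the control range to above it. Ebp, the sterol isomerase, had 70.7, 61.4 and 66.1 CPM in controls and 66.6, 62.3 and 57.9 CPM in PTEC DN RAR libraries, and its log2 fold change of -0.09 ± 0.09 was 0.12 with leukocyte scaling. Per kilobase of exon, Ebp had the highest mean level of the synthesis genes at 27.8 CPM and Idi1 the lowest at 0.174 CPM, with Hmgcs1 at 13.9 CPM and Sqle at 3.56 CPM.

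The tubule markers that were higher in PTEC DN RAR libraries moved with the synthesis genes between genotypes, and their part in these rises was not tested. Within the PTEC DN RAR group the summed proximal tubule level was 2434, 3715 and 3045 CPM in libraries 1, 2 and 3, and library 2 was thus the highest both in this sum and in that of the synthesis genes. The highest PTEC DN RAR value of a synthesis gene was in library 1 for 9 genes, in library 2 for 9 and in library 3 for 0. Of the 16 proximal tubule markers, 0 peaked in library 1, 12 in library 2 and 4 in library 3, of the 10 endothelial markers 0, 8 and 2, and of the 6 thick ascending limb markers 0, 0 and 6. Of the 9 resident macrophage markers, 5 peaked in library 1, 4 in library 2 and 0 in library 3, and of the 26 leukocyte reference genes 19, 7 and 0. Other leukocyte lists differed. Of the 8 infiltrating monocyte markers 1, 2 and 5 peaked in libraries 1, 2 and 3, and of the 10 neutrophil markers 8, 1 and 1. For the 7 dendritic cell markers the counts were 3, 3 and 1, for the 5 B cell markers 3, 2 and 0, and for the 6 T and NK cell markers 5, 0 and 1.

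**Figure D2:**
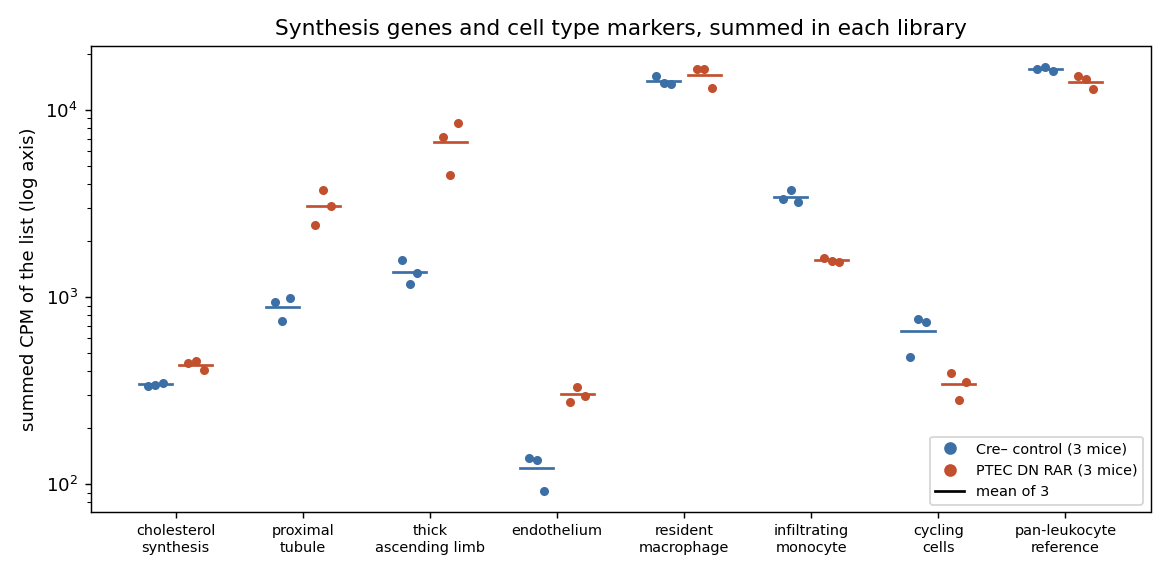
Summed level in CPM (log axis) of the 18 synthesis genes and of 7 cell marker lists in each library, 1 point per mouse, with a line at the group mean. Synthesis genes sum to 336 to 347 CPM in controls and 407 to 454 CPM in PTEC DN RAR, proximal tubule markers to 743 to 983 CPM and 2434 to 3715 CPM, and infiltrating monocyte markers to 3234 to 3722 CPM and 1542 to 1609 CPM.

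Of the 5 sterol sensing genes, 2 were called higher and 0 lower in PTEC DN RAR, the transcription factor Srebf2 and its escort Scap, against 23.6% and 17.1% of all genes tested. At an unadjusted p of 0.05 the count lower was also 0, as it was with DESeq2 and limma-voom. The median log2 fold change was 0.21, and 3 of the 5 had every PTEC DN RAR library above every control, as did 29.2% of all genes tested. Srebf2 (ENSMUSG00000022463, chr15:82147181-82205379, plus strand), which encodes SREBP2, had 133, 133 and 118 CPM in controls and 174, 179 and 156 CPM in PTEC DN RAR libraries. All PTEC DN RAR libraries were higher, and it rose by 0.41 ± 0.09 on the log2 scale, or 1.33-fold (adjusted p = 0.00844, edgeR). Scap had 63.7, 56.3 and 55.4 CPM in controls and 76.9, 73.8 and 81.2 CPM in PTEC DN RAR libraries, a rise of 0.40 ± 0.09 without overlap (adjusted p = 0.00773, edgeR). Without control 3 the adjusted p was 0.0671 for Srebf2 and 0.0631 for Scap, and both were called in the other 5 such fits. For Scap, 18.9% of the longest transcript is shared with a gene on the opposite strand.

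Srebf1, whose products drive fatty acid synthesis more than cholesterol synthesis, had 81.9, 73.2 and 73.2 CPM in controls and 84.6, 73.0 and 81.0 CPM in PTEC DN RAR libraries. The groups overlapped, with a log2 fold change of 0.06 ± 0.09 (adjusted p = 0.608, edgeR). Insig1, itself a known SREBP target that retains SCAP in the endoplasmic reticulum, had 24.4, 24.8 and 29.3 CPM in controls and 27.1, 30.4 and 23.0 CPM in PTEC DN RAR libraries. Both the highest and the lowest of its 6 values were PTEC DN RAR libraries, 2 and 3, and the log2 fold change was 0.04 ± 0.13 (adjusted p = 0.838, edgeR), with the sign turning to -0.0019 under DESeq2. Insig2, the related retention protein, had 23.8, 26.1 and 28.3 CPM in controls and 30.1, 29.4 and 30.7 CPM in PTEC DN RAR libraries. It did not overlap between groups, with a log2 fold change of 0.21 ± 0.10 that did not pass (adjusted p = 0.119, edgeR).

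The starts of Srebf2, which was called higher, and Insig1, which was not, are shown side by side as SREBP2-responsive genes of the sensing arm. The Srebf2 window is chr15:82147019-82147318 and the Insig1 window chr5:28071162-28071461, both on the plus strand of GRCm38.p6 from RefSeq, with CCAAT boxes and E-boxes in capitals.
Srebf2: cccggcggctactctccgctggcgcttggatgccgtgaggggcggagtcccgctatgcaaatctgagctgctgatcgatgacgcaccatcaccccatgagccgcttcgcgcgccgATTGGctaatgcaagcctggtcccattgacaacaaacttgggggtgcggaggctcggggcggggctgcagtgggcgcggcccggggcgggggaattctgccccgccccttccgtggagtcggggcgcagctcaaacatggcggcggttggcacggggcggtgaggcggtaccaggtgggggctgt
Insig1: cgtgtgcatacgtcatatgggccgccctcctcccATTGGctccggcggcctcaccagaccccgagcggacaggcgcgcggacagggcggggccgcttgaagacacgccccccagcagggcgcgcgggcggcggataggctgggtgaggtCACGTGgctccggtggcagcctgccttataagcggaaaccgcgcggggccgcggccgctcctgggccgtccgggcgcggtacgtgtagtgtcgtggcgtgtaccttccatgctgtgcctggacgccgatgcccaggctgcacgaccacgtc

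The Srebf2 window held a CCAAT box 135 bases before the start, and that of Insig1 a CCAAT box 216 bases and an E-box 101 bases before it. Upstream of its CCAAT box, the Srebf2 window also holds the letters tcaccccat. They differ from the sterol regulatory element TCACNCCAC in the last base only, so the search did not count them. Near matches were not searched in any window. A CCAAT box was thus present in both windows.

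Ratios of paired genes within a library do not depend on how libraries are scaled. The log2 ratio of Srebf1 to Srebf2 reads was -0.70, -0.86 and -0.69 in controls and -1.04, -1.29 and -0.95 in PTEC DN RAR libraries. All PTEC DN RAR ratios were lower, with a mean difference of -0.34, and p = 0.10 (adjusted over 4 ratios, 0.133) in a two-sided exact permutation test over the 20 splits of 6 libraries, which is the smallest p that 3 mice against 3 can give. The log2 ratio of Insig1 to Insig2 was 0.03, -0.07 and 0.05 in controls and -0.15, 0.05 and -0.42 in PTEC DN RAR libraries, a difference of -0.18 with overlapping groups (exact permutation p = 0.40, adjusted 0.40).

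Of the 5 genes of the LXR and efflux arm, 1 was called lower, the exporter Abca1, and 1 higher, the receptor Nr1h3, which is near the 17.1% and 23.6% of all genes tested. The median of the 5 genes was 0.05. Abca1 (ENSMUSG00000015243, chr4:53030787-53159895, minus strand), which loads cholesterol onto apolipoprotein A-I, had 416, 441 and 609 CPM in controls and 284, 258 and 274 CPM in PTEC DN RAR libraries. The PTEC DN RAR values lay close together and below every control, among which control 3 was the highest. Abca1 fell by 0.84 on the log2 scale with a standard error of 0.14 (adjusted p = 0.00273, edgeR), to 0.557 times the control level, the largest change downward of the 32. The fall was called with leukocyte scaling (-0.64, adjusted p = 0.0111, edgeR) and in all 6 fits without 1 library, between -0.96 and -0.70. Per kilobase of exon its mean level was 36.7 CPM, behind those of Npc2 and Lipa alone among the 32.

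Abcg1, the LXR-driven exporter to high-density lipoprotein, had 137, 132 and 130 CPM in controls and 128, 118 and 122 CPM in PTEC DN RAR libraries. Every PTEC DN RAR value was below every control, but by little, and the log2 fold change of -0.12 ± 0.08 did not pass (adjusted p = 0.238, edgeR) and was 0.09 with leukocyte scaling. The log2 ratio of Abca1 to Abcg1 within a library was 1.60, 1.74 and 2.22 in controls and 1.15, 1.14 and 1.17 in PTEC DN RAR libraries. All PTEC DN RAR ratios were lower and nearly equal, with a mean difference of -0.70 (exact permutation p = 0.10, the smallest possible, adjusted 0.133). Mylip, an LXR target that marks lipoprotein receptors for degradation, had 38.6, 36.8 and 41.3 CPM in controls and 43.5, 40.5 and 36.8 CPM in PTEC DN RAR libraries, with a log2 fold change of 0.05 ± 0.09 and overlapping groups (adjusted p = 0.707, edgeR).

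The start of Abca1, the efflux gene with the called fall, is shown because it holds the known LXR element. The window is chr4:53159846-53160145 on the minus strand of GRCm38.p6 from RefSeq, with the LXR element, searched as TGACC and TAACC with 5 bases between, and the E-box in capitals.
Abca1: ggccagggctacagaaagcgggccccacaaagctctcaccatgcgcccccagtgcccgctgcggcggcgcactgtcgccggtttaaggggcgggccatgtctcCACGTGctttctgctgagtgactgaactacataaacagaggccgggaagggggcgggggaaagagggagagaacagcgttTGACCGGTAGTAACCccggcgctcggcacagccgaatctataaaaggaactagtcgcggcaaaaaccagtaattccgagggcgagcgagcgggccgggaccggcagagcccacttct

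The element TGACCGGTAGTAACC began 67 bases before the Abca1 start and the E-box 147 bases before it. The searched letters are those of the known Abca1 element, so the match in Abca1 was fixed in advance and is no sign of enrichment. On either strand, they were in the windows of 2 members, Abca1 and Srebf1, and in the windows of 0.0481% of all genes. The perfect repeat of AGGTCA with 4 bases between was in 0 members and in 0.0148% of genes. Of the 2 members that hold these letters, Abca1 was called lower and Srebf1 was not called.

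Of the 2 LXR receptors, Nr1h3 was called higher and Nr1h2 was not called. Nr1h3, which encodes LXRα, the form typical of macrophages and liver, had 13.9, 11.9 and 9.82 CPM in controls and 20.0, 25.2 and 15.2 CPM in PTEC DN RAR libraries. All 3 PTEC DN RAR libraries were above the controls, library 2 the most, and it rose by 0.76 ± 0.20 on the log2 scale, or 1.69-fold (adjusted p = 0.0171, edgeR). The adjusted p was 0.0521 without control 2, 0.0792 without control 3 and 0.0546 without PTEC DN RAR library 2, with log2 fold changes of 0.72, 0.59 and 0.56 in these fits. Nr1h2, which encodes the widely expressed LXRβ, had 86.1, 63.6 and 70.6 CPM in controls and 84.2, 80.5 and 80.5 CPM in PTEC DN RAR libraries, with a log2 fold change of 0.15 ± 0.11 (adjusted p = 0.308, edgeR). Its highest value was control 1, without which the adjusted p was 0.0341. The log2 ratio of Nr1h3 to Nr1h2 was -2.62, -2.41 and -2.84 in controls and -2.08, -1.67 and -2.40 in PTEC DN RAR libraries, a difference of 0.57 with no overlap (exact permutation p = 0.10, the smallest possible, adjusted 0.133).

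**Figure D3:**
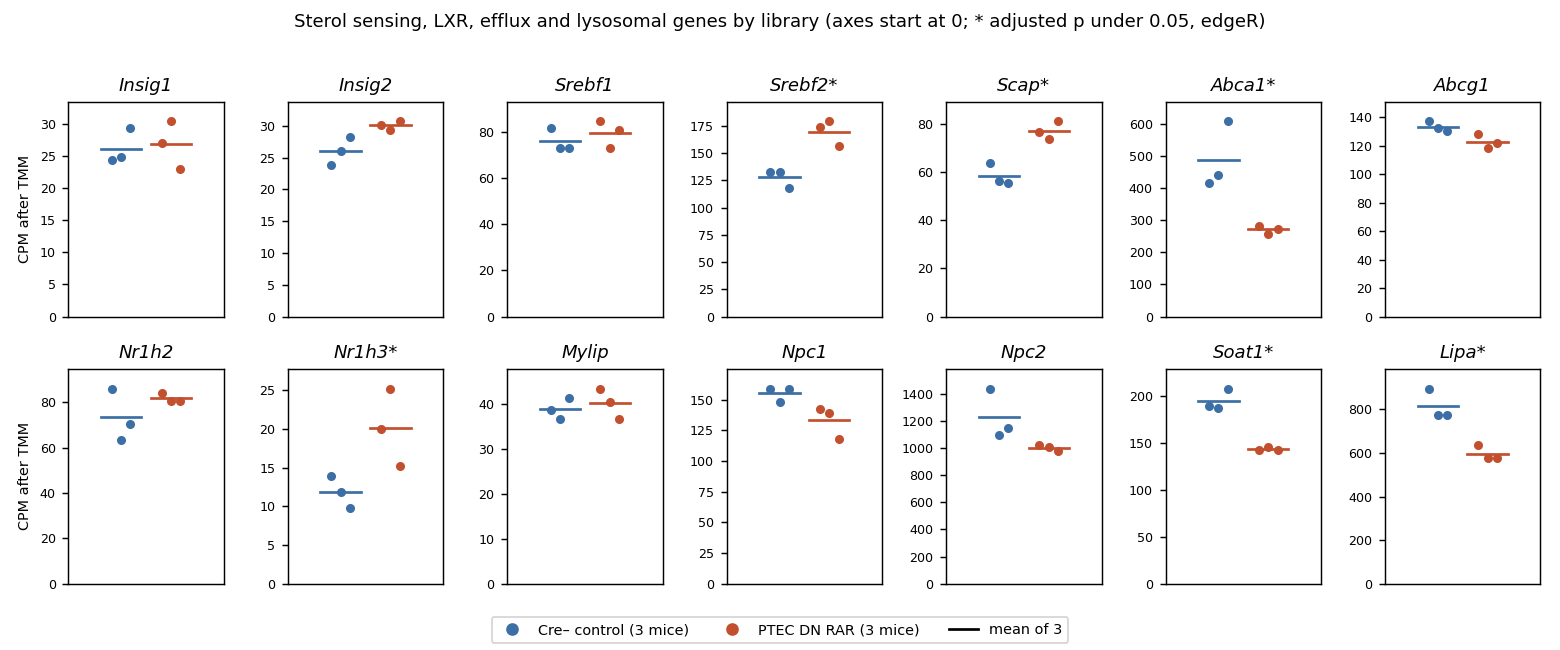
Level in CPM after TMM scaling (axes start at 0) of the 14 genes of sterol sensing, LXR and efflux, and lysosomal release and esterification, with 1 point per mouse, a line at the mean of 3 and an asterisk for an adjusted p under 0.05. Srebf2, Scap and Nr1h3 lie higher in PTEC DN RAR, Abca1, Soat1 and Lipa lie lower, and Srebf1, Insig1 and Mylip overlap.

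The 4 genes that free cholesterol in the lysosome or store it as ester all had log2 fold changes below 0, with 2 called lower and 0 higher by edgeR, against 17.1% and 23.6% of all genes tested. The count called higher was also 0 by DESeq2 and limma-voom and at an unadjusted p of 0.05. The median was -0.37, and all 4 were non-overlapping with PTEC DN RAR below, as were 24.2% of all genes tested. Lipa (ENSMUSG00000024781), lysosomal acid lipase, which splits lipoprotein cholesteryl esters, had 896, 774 and 775 CPM in controls and 637, 579 and 575 CPM in PTEC DN RAR libraries. It fell by 0.45 on the log2 scale with a standard error of 0.10 (adjusted p = 0.00873, edgeR). Soat1 (ENSMUSG00000026600), which esterifies cholesterol for storage in macrophages, had 189, 187 and 208 CPM in controls and 143, 146 and 142 CPM in PTEC DN RAR libraries. The PTEC DN RAR libraries were nearly equal and all below the controls, a fall of 0.44 with a standard error of 0.08 (adjusted p = 0.00369, edgeR). Both calls held in all 6 fits without 1 library.

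The lysosomal transporters did not pass in edgeR. Npc2, which takes up cholesterol freed in the lysosome, had 1437, 1097 and 1148 CPM in controls and 1023, 1004 and 975 CPM in PTEC DN RAR libraries (log2 fold change -0.29 ± 0.12, adjusted p = 0.0822, edgeR). The adjusted p was 0.042 without control 2, and control 1 was well above the other controls. Npc1, which receives cholesterol from NPC2 and passes it through the lysosomal membrane, had 159, 148 and 159 CPM in controls and 142, 139 and 118 CPM in PTEC DN RAR libraries (log2 fold change -0.22 ± 0.09, adjusted p = 0.0874, edgeR). DESeq2, which sets the center of all genes slightly lower, called both lower, with adjusted p of 0.0212 for Npc2 and 0.027 for Npc1, and called 21.2% of all genes tested lower. With leukocyte scaling, in contrast, 0 of the 4 were called lower by edgeR, against 4.31% of all genes tested, and also 0 at an unadjusted p of 0.05: Soat1 had a log2 fold change of -0.23 (adjusted p = 0.154, edgeR), Lipa -0.24 (adjusted p = 0.112, edgeR), Npc2 -0.08 and Npc1 -0.02. The 25 leukocyte genes used for that scaling had themselves a median log2 fold change of -0.21 in the scaling on all genes. Per kilobase of exon, Npc2 at 205 CPM and Lipa at 104 CPM had the highest mean levels of the 32 genes.

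**Figure D4:**
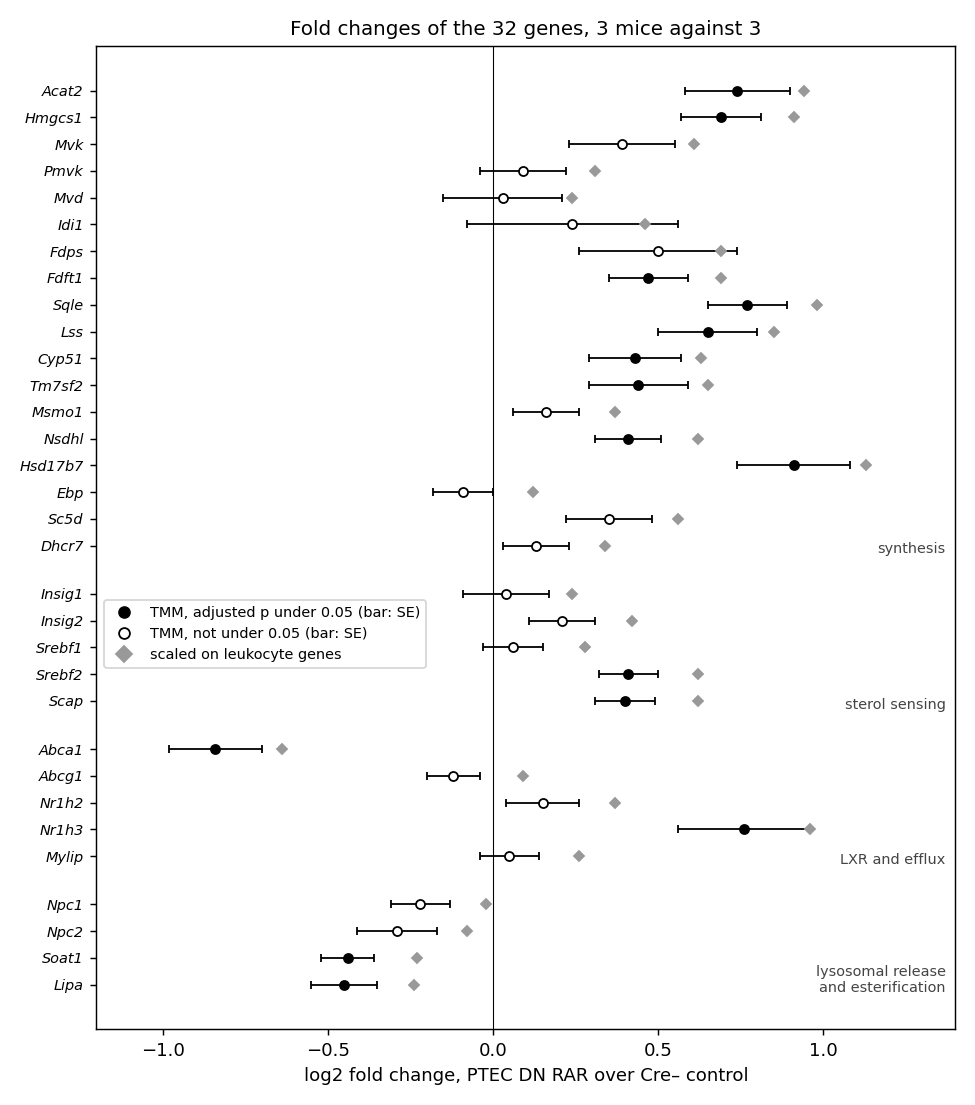
Log2 fold change of PTEC DN RAR over Cre– control for the 32 genes (x axis), by group, with the standard error as bar (3 mice against 3), filled circles for an adjusted p under 0.05 and gray diamonds for the value when libraries are scaled on leukocyte genes. Synthesis genes run from -0.09 for Ebp to 0.91 for Hsd17b7, Abca1 lies lowest at -0.84, and the diamonds lie to the right of the circles.

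In all, 12 of the 32 genes were called higher, 3 were called lower and 17 were not called, against 23.6% higher and 17.1% lower over all genes tested, with a median log2 fold change of 0.22, and the groups did not overlap for 20 of the 32, against 53.4% of all genes tested. With leukocyte scaling, 19 were called higher and 1 lower, against 31.4% and 4.31% of all genes. The 32 genes lie on 18 chromosomes. Either direction held for 40.6% of all genes tested, so a called gene was common in this comparison.

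**Figure D5:**
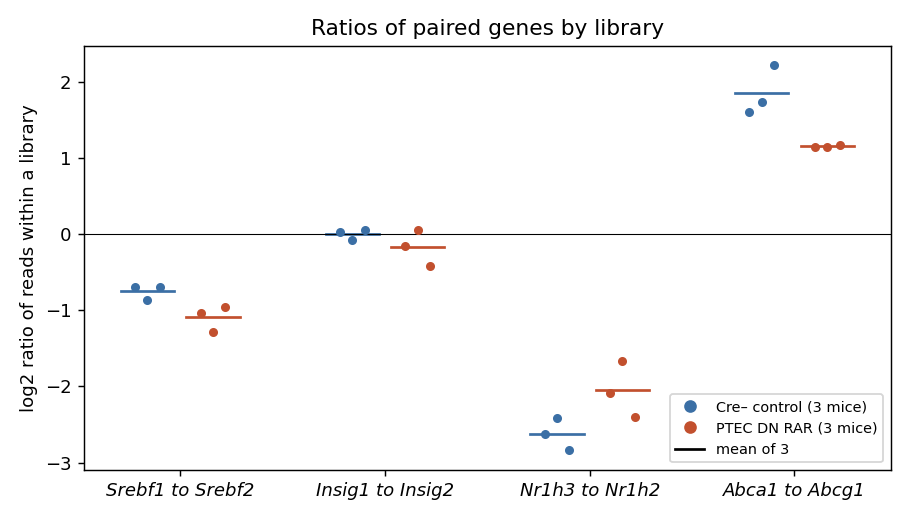
Log2 ratio of the reads of 2 genes within each library (y axis) for 4 pairs, 1 point per mouse, with a line at the mean of 3. Ratios of Srebf1 to Srebf2 and of Abca1 to Abcg1 are lower in all PTEC DN RAR libraries, those of Nr1h3 to Nr1h2 are higher, and those of Insig1 to Insig2 overlap.

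Further genes of lipid synthesis, listed for known function, included 18 of fatty acid synthesis, the branch that SREBP1 drives. Of these, 11 were called higher and 1 lower, with a median log2 fold change of 0.47, against 23.6% called higher, 17.1% lower and a median of 0.04 over all genes tested. The count higher was 7 without control 2 and 6 without control 3, fits in which 17.8% and 15.2% of all genes were called higher. Acacb, the acetyl-CoA carboxylase of the mitochondrial surface, had 5.97, 6.64 and 7.10 CPM in controls and 34.9, 24.6 and 44.9 CPM in PTEC DN RAR libraries, a rise of 2.41 ± 0.21 (adjusted p = 0.000219, edgeR). Acaca, the other acetyl-CoA carboxylase of the list, named after its values were seen, was not called. Its log2 fold change was -0.06 ± 0.18 with overlapping groups (adjusted p = 0.802, edgeR). Fads2, the delta-6 desaturase, rose by 1.35 ± 0.20, Me1, which supplies NADPH for lipid synthesis, by 1.34 ± 0.20, and Gpam, the first acyltransferase of glycerolipid synthesis, by 1.12 ± 0.12. Acly, the citrate lyase that supplies cytosolic acetyl-CoA to both branches, had 274, 303 and 298 CPM in controls and 250, 252 and 226 CPM in PTEC DN RAR libraries. It was lower in all PTEC DN RAR libraries, with a fall of 0.27 on the log2 scale (adjusted p = 0.0403, edgeR) that was called in 1 of the 6 fits without 1 library, the fit without control 1, with adjusted p of 0.066 to 0.0808 in the others. With leukocyte scaling Acly was at -0.06 and was not called. Tubule cells also express several of these genes, and the part of the tubule markers given above was not tested.

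Another 37 genes of sterol handling, of which 36 could be tested, had 8 called higher and 9 lower and a median of -0.04. The count lower was 5 without control 3 and 5 without PTEC DN RAR library 1, against 11.7% and 12.6% of all genes. With all libraries, the 8 higher and 9 lower lie near the shares over all genes tested, 23.6% higher and 17.1% lower. With leukocyte scaling, 13 were called higher and 2 lower, against 31.4% and 4.31% of all genes, and the median was 0.18. The genes below are given for their own values, not as a result about the list. Stard4, a cytosolic sterol carrier, rose by 0.52 ± 0.11 on the log2 scale (standard error) and Cyp27a1, which makes the LXR ligand 27-hydroxycholesterol, by 0.52 ± 0.13, though Cyp27a1 lost its call without control 2 (adjusted p = 0.0618, edgeR) and without control 3 (adjusted p = 0.0802, edgeR). Osbpl1a, of the oxysterol-binding protein family, rose by 0.44 ± 0.13 and was called in 2 of the 6 fits without 1 library, those without PTEC DN RAR library 1 and 2, with adjusted p of 0.0534 to 0.11 in the others (edgeR).

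Among the genes called lower, Cd36 and Lrp1 changed the most, while the scavenger receptors Scarb1 and Scarb2 of the same list, named after their values were seen, had log2 fold changes of -0.14 and -0.05 and were not called (adjusted p of 0.317 and 0.634, edgeR). Cd36, the scavenger receptor for oxidized lipoprotein, had 667, 691 and 744 CPM in controls and 346, 351 and 404 CPM in PTEC DN RAR libraries. The groups were far apart, a fall of 0.93 on the log2 scale with a standard error of 0.10 (adjusted p = 0.000388, edgeR). Lrp1, an endocytic receptor for lipoproteins and dead cells, fell by 0.57 and, like Cd36, was called in all 6 fits without 1 library and with leukocyte scaling. Nceh1, which splits stored cholesteryl esters, fell by 0.42, and Gramd1b, which carries cholesterol from the plasma membrane to the endoplasmic reticulum, by 0.36. Both lost their call with leukocyte scaling (adjusted p of 0.233 and 0.403, edgeR), and Gramd1b also without control 3 (adjusted p = 0.0521, edgeR) and without PTEC DN RAR library 1 (adjusted p = 0.0501, edgeR). Infiltrating monocyte markers were lower in the same libraries, with values given above, and their part in these falls and in those of Abca1, Soat1 and Lipa was not tested.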

How the data were processed

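CD11B+ cells of 3 PTEC DN RAR and 3 Cre– control mice were sequenced from polyA RNA, 1 library per mouse. The authors deposited raw read counts per Ensembl gene without normalization. The submitters' processing notes name STAR 2.5.0a, HTSeq 0.6.1, edgeR, limma and build GRCm38. The table held 46612 gene lines and 5 summary lines. Of the gene lines, 9 repeats were dropped. Reads with several alignments made up 42.93% to 47.75% per library, those outside genes 2.39% to 3.97% and ambiguous ones 0.457% to 0.527%, and all stayed out of library sizes and tests. Gene counts summed to 29318041 to 46517005 per library, which limits counting error but not the spread between mice. Libraries of a group differed by more than sampling noise (chi-square per degree of freedom of at least 27.1).

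Low counts were removed with filterByExpr, libraries were scaled by TMM, and genotypes were compared by the quasi-likelihood test of edgeR 4.0.16 (R 4.3.3). Adjustment was by Benjamini-Hochberg over 15440 genes, with calls at 0.05 and no covariate. The code was tested on simulated data. Within-library ratios were log2 of reads with 2 added, compared with two-sided exact permutation tests. Alternatives were DESeq2 1.42.0, limma 3.58.1 (voom), median-of-ratios factors, library size, scaling on 25 leukocyte genes, no filter, at least 10 reads in every library, a replicate block and leaving out each library. Coordinates are from GENCODE M21 on GRCm38, promoter windows from RefSeq on GRCm38.p6, and shared sequence was found with blastn 2.17.0 at 95% identity over at least 100 bases. All 32 genes are named. Of the fatty acid and sterol handling lists, up to 4 called genes per direction with a mean of at least 10 CPM are named, by size of the change. One result that this rule picks is not reported here. Members and lists were chosen with earlier results of these data known. The paper's other assays were not analysed here.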

Additional observations from a re-analysis of the deposited data

How the results depend on the processing

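With limma-voom and with library size in place of TMM, each of the 32 genes stayed on its side of the threshold. With libraries scaled on leukocyte genes, which called 31.4% of all genes higher and 4.31% lower, called higher were 14 synthesis genes, 3 sterol sensing genes, 2 LXR and efflux genes and 13 genes of other sterol handling, and called lower were 0 lysosomal and esterification genes, 0 fatty acid genes and 2 genes of other sterol handling. In that scaling Ebp turned to 0.12 and Abcg1 to 0.09. Mvk, Fdps, Msmo1, Sc5d, Dhcr7, Insig2 and Nr1h2 gained a call in it, and Soat1 and Lipa lost theirs. DESeq2 and median-of-ratios factors each called 4 lysosomal and esterification genes lower and turned Mvd to -0.01 and Insig1 to -0.0019. The count of fatty acid genes lower was 0 with library size and with at least 10 reads in every library. Leaving out 1 library at a time, the counts called higher ran from 5 to 8 for synthesis, 0 to 2 for sterol sensing, 0 to 2 for LXR and efflux, and 6 to 9 for fatty acid synthesis, and the counts called lower from 0 to 1 for fatty acid synthesis, 2 to 3 for lysosomal genes and 5 to 9 for other sterol handling. The 5 synthesis genes were without control 2, the 0 of sterol sensing without control 3. In these fits the share of all genes called also fell, to 17.8% higher and 14.3% lower without control 2 and 15.2% and 11.7% without control 3, from 23.6% and 17.1% with all libraries. In the same fits, signs turned in uncalled genes, with ranges for Pmvk (-0.03 to 0.20), Mvd (-0.17 to 0.23), Insig1 (-0.06 to 0.09), Srebf1 (-0.01 to 0.12) and Mylip (-0.03 to 0.07). With no filter, Tm7sf2 lost its call and Npc2 gained one, Tm7sf2 also lost it with median-of-ratios factors, and Sc5d gained one with at least 10 reads in every library. The cause was not tested, apart from the smaller number of libraries. Labels number the mice 1 to 3 in each genotype. Same-numbered libraries deviated together with correlations of -0.01, 0.21 and 0.03, and control 1 correlated best with PTEC DN RAR library 3 (0.15). With 3 libraries per group, these values cannot tell whether the numbers pair the mice. With the replicate number as a block, 31 of 32 genes kept their side of the threshold, and Tm7sf2 (0.44, adjusted p = 0.0578, edgeR) did not. The 4 ratios kept their sign with a prior count of 0 and in all fits without 1 library. Precision is limited by 3 mice per group, and for Idi1 by as few as 15 reads.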
